A study of Mus musculus with 2 samples.

Results

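The 8 genes described here encode the relay from the Toll-like and interleukin-1 receptors to the kinase TAK1 and on to the IKK complex: the adapter *Myd88*, the kinases *Irak4* and *Irak1*, the ubiquitin ligase *Traf6*, the TAK1-binding proteins *Tab1* and *Tab2*, TAK1 itself (gene *Map3k7*) and *Chuk*, which encodes the catalytic subunit IKK-alpha. They were chosen by symbol, with earlier results of these data known, and are 8 of the 19465 genes in the deposited tables. The data were spatial transcriptomes of skin from an imiquimod (IMQ) model of psoriasis-like inflammation. One section came from an *S1pr2fl/fl* mouse, labelled *S1pr2 f/f*, and 1 from an *S1pr2fl/fl K14-Cre* mouse, labelled *S1pr2 f/f K14-Cre*. Both animals carried the floxed alleles of *S1pr2*, the gene for a receptor of sphingosine-1-phosphate, and both were treated, so no untreated section enters any value below. The Cre recombinase was driven by the keratin 14 promoter, which is active in basal keratinocytes and in the hair follicle epithelium. The targeted cells are thus those of the epidermis and its appendages, and not the cells of the dermis, fat or muscle themselves. The regions given those names below also held epidermis marker counts, so they may include targeted cells. The mice were 8 weeks old and received 62.5 mg of 5% IMQ cream daily for 7 days on depilated back skin. Fixed and paraffin-embedded skin was cut at 10 µm for Visium CytAssist, in which pairs of probes report each gene in spots laid out on a grid. With 1 section per genotype no test between genotypes was possible, and genotype, animal, section and library cannot be told apart.

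Ligands of Toll-like receptors and cytokines of the interleukin-1 family bring MyD88 to the receptor tail, where IRAK4 joins it and activates IRAK1. IRAK1 then engages TRAF6, whose ubiquitin chains are read by TAB2 and hold TAK1 with its activator TAB1, and TAK1 switches on the IKK complex and the MAP kinases. In skin this route serves both keratinocytes and the immune cells of the dermis, and imiquimod itself is a ligand of Toll-like receptor 7.

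The promoters of *Myd88*, *Traf6* and *Tab2* are shown because the results turn on how these genes, with *Tab1*, differ between layers and sections, and they were picked after their values were seen. *Tab1* is named only. In RefSeq (GRCm38.p6, the build mm10 named by the submitters), 7 of the 8 members had 1 or more entries of 300 bases, from 250 bases before the start of the gene to 50 after it. Capitals mark every match, on either strand, to the letters searched: a kappaB-type site (GGG, any 5 bases, then CC), GGGCGG for a GC box, CCAAT, TTCNNNGAA for a STAT-type site and TATAAA. The windows are chr9:119339969-119340268 on the minus strand for *Myd88*, chr2:101678170-101678469 on the plus strand for *Traf6* and chr10:7956074-7956373 on the minus strand for *Tab2*, written 5′ to 3′ along each gene. *Tab2* has 2 entries, of which the first is printed.
Myd88: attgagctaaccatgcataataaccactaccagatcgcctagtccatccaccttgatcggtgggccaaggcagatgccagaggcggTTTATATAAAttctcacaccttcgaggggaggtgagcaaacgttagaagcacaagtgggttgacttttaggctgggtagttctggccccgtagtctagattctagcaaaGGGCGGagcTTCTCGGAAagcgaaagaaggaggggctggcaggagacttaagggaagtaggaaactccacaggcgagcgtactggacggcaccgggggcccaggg
Traf6: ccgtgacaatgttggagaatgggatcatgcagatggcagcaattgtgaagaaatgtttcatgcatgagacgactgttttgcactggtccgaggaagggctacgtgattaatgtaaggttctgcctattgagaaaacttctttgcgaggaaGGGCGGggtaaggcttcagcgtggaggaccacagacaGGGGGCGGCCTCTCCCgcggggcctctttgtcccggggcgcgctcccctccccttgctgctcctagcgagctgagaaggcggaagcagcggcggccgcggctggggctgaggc
Tab2: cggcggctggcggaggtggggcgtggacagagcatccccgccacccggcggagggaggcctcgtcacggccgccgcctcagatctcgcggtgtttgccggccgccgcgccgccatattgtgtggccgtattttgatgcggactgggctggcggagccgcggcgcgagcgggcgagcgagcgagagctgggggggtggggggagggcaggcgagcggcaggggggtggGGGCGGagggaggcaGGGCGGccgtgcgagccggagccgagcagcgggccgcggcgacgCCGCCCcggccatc
In the *Myd88* window the matches were TATAAA at -160 with its reverse complement at -164, which overlaps it, a GC box at -55 and a STAT-type match at -46, counted from the start of the gene. The *Traf6* window held kappaB-type letters at -63 and, on the other strand, at -57, which overlap each other and a GC box at -61, and a further GC box at -100. The *Tab2* window printed held GC boxes only, at -23, -8 and 37, with 78.0% G and C, whereas the other *Tab2* entry held a CCAAT box and no GC box, with 38.7% G and C. Of all 32851 RefSeq promoters of this length, 50.8% held the kappaB-type letters, 35.7% the GC box, 37.4% CCAAT, 8.30% the STAT-type letters and 13.6% TATAAA. A match describes these letters and is not a measured binding site.

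The fl/fl section held 1282 spots and 5315351 unique molecular identifiers (UMIs, each the tag of 1 captured molecule), and the K14-Cre section 981 spots and 2845826 UMIs. Each spot with at least 500 UMIs was given to the epidermis, dermis, fat or muscle by its marker genes, and spots near a tie were left without a layer. The layers held 353, 183, 84 and 270 spots in the fl/fl section and 291, 135, 81 and 272 in the K14-Cre section. A spot can hold several cells, so a layer is a region led by its markers and not a pure cell type. In the K14-Cre section all 48 markers were highest in their own layer, while in the fl/fl section 15 of 16 epidermis, 8 of 11 dermis, 10 of 10 fat and 11 of 11 muscle markers were. The sections differed in how the layers mixed. The 16 epidermis markers summed to 91372 UMIs per 1000000 UMIs of the same spots (CPM) in the fl/fl epidermis and 48668 in the K14-Cre epidermis, and to between 17642 and 27397 CPM in the other fl/fl layers against 2192 to 5007 in the other K14-Cre layers. The 11 muscle markers summed to 3217 CPM in the fl/fl dermis and 28386 in the K14-Cre dermis, and the developmental muscle genes to 35.8 and 1315 CPM. None of the epidermis or muscle markers was at 0 in any layer.

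**Figure D1:**
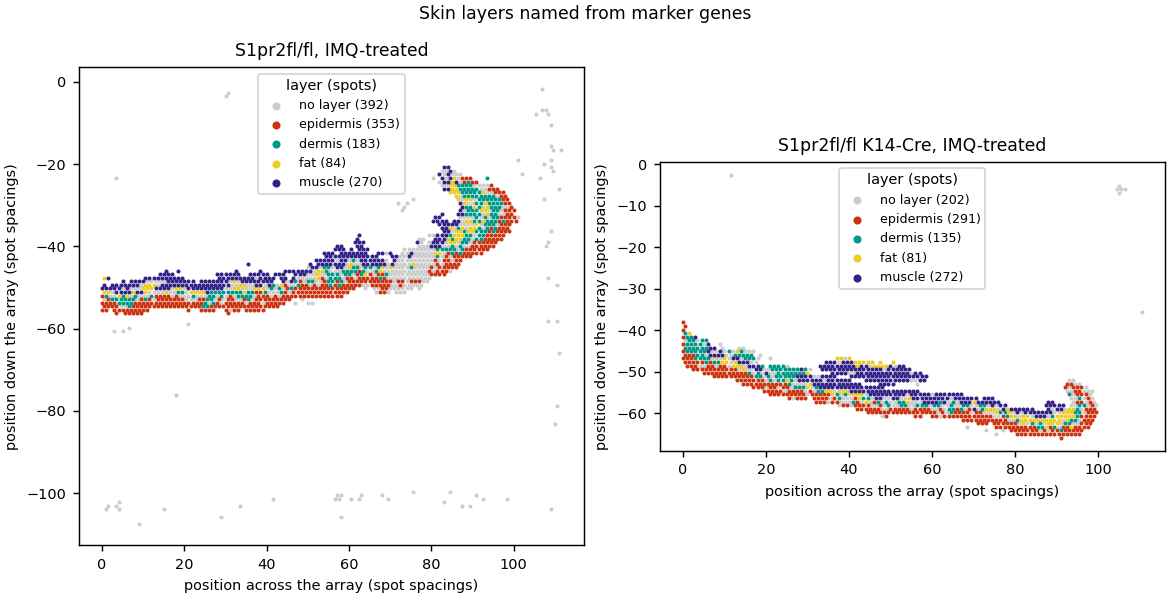
Position of every spot on the array for the fl/fl section (left) and the K14-Cre section (right), in spot spacings, coloured by the layer its markers gave, with the number of spots in the legend. Epidermis spots (353 and 291) lie along 1 edge of each section and muscle spots (270 and 272) along the other, and grey spots, which include those under 500 UMIs, have no layer.

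The targeted gene *S1pr2* was read at 37 UMIs in the fl/fl epidermis and 15 in the K14-Cre epidermis, that is 17.2 and 16.7 CPM. Their log2 ratio of K14-Cre over fl/fl was -0.04, with a 95% counting interval from -1.01 to 0.86, so a lower level in the epidermis layer was not detectable at this depth. In the dermis it was 50 UMIs against 9 (59.6 and 20.2 CPM), in the fat 10 against 8 and in the muscle 23 against 10. In epidermis spots the 1226 chemosensory receptor genes, which skin should hardly express, had a mean of 3.56 UMIs in fl/fl and 7.95 in K14-Cre. Their 95th percentiles were 8 and 17 UMIs, so *S1pr2* lay above that in fl/fl (37) and below it in K14-Cre (15). The *S1pr2* level thus did not check the genotype label in the epidermis, and where its probes lie against the deleted part is not given in the sources used here.

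Summed over the 8 members, the level was nearly even across the layers of the fl/fl section and lower in the muscle of the K14-Cre section. The fl/fl sums were 442 CPM in epidermis (950 UMIs), 494 in dermis (414 UMIs), 439 in fat (155 UMIs) and 469 in muscle (480 UMIs). The K14-Cre sums were 463 CPM in epidermis (415 UMIs), 471 in dermis (210 UMIs), 452 in fat (114 UMIs) and 318 in muscle (247 UMIs). The muscle of the K14-Cre section was the lowest of these 8 values, while the other 7 lay between 439 and 494 CPM. Muscle over the other layers had a log2 ratio of 0.04 in fl/fl and -0.54 in K14-Cre for the summed members. The medians of all genes with at least 20 UMIs over the layers of a section were -0.12 and -0.73. A lower K14-Cre muscle was thus not particular to the members. For their sum, the log2 ratio of K14-Cre over fl/fl was 0.07 in epidermis (95% counting interval -0.10 to 0.23), -0.07 in dermis (-0.31 to 0.18), 0.04 in fat (-0.32 to 0.40) and -0.56 in muscle (-0.79 to -0.33). All intervals here cover counting error only, not the spread between animals. The epidermis ratio minus the muscle ratio was 0.62 (0.35 to 0.90), but under another scaling, TMM, its sign turned, to -0.29 (-0.57 to -0.02). With the 100 most abundant genes left out of the totals this difference was 0.32 (0.04 to 0.59). In such sums over spots, fewer cells of a type and less RNA per cell cannot be told apart.

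These ratios depend on what they are scaled to. TMM factors scale by most genes instead of by all UMIs. They were computed over the 8 layer sums of both sections together, and separately for all spots. The layer factors thus also take up differences between layers and do not set the sections level within a layer. Under these factors every log2 ratio moved by -0.71 in epidermis, -0.15 in dermis, 0.02 in fat, 0.21 in muscle and -0.37 over all spots. The epidermis shift was larger in size than the median of all genes there, 0.49 before scaling. The 8 members together then came to -0.64 in epidermis, which turns the direction of their small ratio, to -0.35 in muscle and to -0.50 over all spots instead of -0.12. Over all 13200 genes with at least 20 UMIs in the epidermis of both sections together, the median log2 ratio was 0.49, and 1 of the 8 members, *Tab1*, lay above it. The corresponding medians were -0.05 in dermis (6 of 8 members above), -0.12 in fat (3 of the 6 members with at least 20 UMIs above) and -0.24 in muscle (2 of 8 above). Among the 5512 genes with at least 100 UMIs the epidermis median was -0.01, and 3 of the 6 members that deep lay above it.

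**Figure D2:**
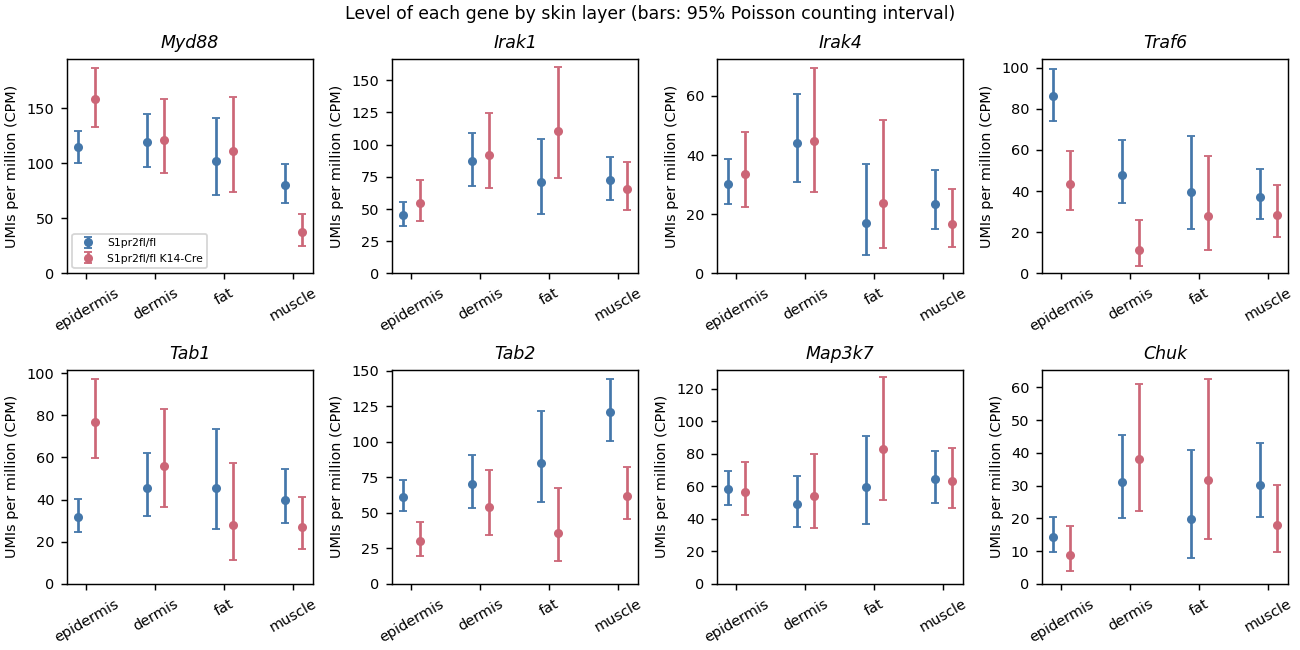
Level of each member in CPM by layer, fl/fl in blue and K14-Cre in red, 1 section each, with bars for the exact 95% Poisson counting interval. *Tab1* in epidermis (31.6 and 76.9 CPM) and *Myd88* in muscle (80.1 and 37.4 CPM) are separated beyond their bars, as are *Myd88*, *Traf6* and *Tab2* in epidermis, *Traf6* in dermis and *Tab2* in muscle, while the *Irak1*, *Irak4*, *Map3k7* and *Chuk* bars overlap in every layer.

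*Myd88*, the adapter at the head of the relay, differed between the sections in opposite directions in epidermis and muscle, although under TMM scaling both ratios were below 0. In the fl/fl section it was read at 114 CPM in epidermis (246 UMIs), 119 in dermis (100 UMIs), 102 in fat (36 UMIs) and 80.1 in muscle (82 UMIs). In the K14-Cre section it was read at 158 CPM in epidermis (142 UMIs), 121 in dermis (54 UMIs), 111 in fat (28 UMIs) and 37.4 in muscle (29 UMIs). Muscle was the lowest layer in both sections, but the step from epidermis to muscle was 1.43-fold in the fl/fl section (1.11 to 1.86) and 4.24-fold in the K14-Cre section (2.83 to 6.55). In muscle over the other layers, *Myd88* had log2 ratios of -0.51 in fl/fl and -1.91 in K14-Cre, beside all-gene medians of -0.12 and -0.73. Its log2 ratio of K14-Cre over fl/fl was 0.47 in epidermis (0.16 to 0.77), although it was -0.24 there under TMM scaling. The 0.47 was just below the epidermis median of genes with at least 20 UMIs (0.49) and above that of genes with at least 100 UMIs (-0.01). In dermis and fat the *Myd88* ratio was 0.02 and 0.12, with intervals that include 0, and in muscle it was -1.10 (-1.76 to -0.47). The epidermis ratio exceeded the muscle ratio by 1.57 (0.89 to 2.25), and the layers' intervals shared no value. Under TMM scaling that difference was 0.65 (-0.03 to 1.33), the muscle ratio was -0.89 and the 4 intervals shared the values from -0.55 to -0.26. With the 100 most abundant genes left out of the totals the difference was 1.26 (0.58 to 1.94), and the intervals shared no value. The layer difference of *Myd88* thus depends on the scaling. Summed over all spots *Myd88* was at 109 and 108 CPM, a log2 ratio of -0.02. Those sums also hold dermis, fat and spots without a layer, and the layers make up different parts of each section. Weighted over the layers the ratio was 0.10 (-0.12 to 0.31).

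Marker lists of other cells also differed in the muscle spots. The 16 epidermis markers summed to 17642 CPM in the fl/fl muscle and 2192 in the K14-Cre muscle, the 7 macrophage and dendritic markers to 1279 and 758 CPM, and the 7 neutrophil markers to 76.2 and 20.6 CPM, with 1 and 3 of the neutrophil markers at 0. The 11 muscle markers differed the other way, at 83802 and 154629 CPM. So did the 10 fat markers, at 5323 and 10391 CPM, and the developmental muscle genes, at 82.0 and 493 CPM. The 11 dermis markers were nearly level, at 13634 and 13487 CPM, and the hair, T cell, endothelium and blood lists were lower in the K14-Cre muscle. The part of these differences in the *Myd88* ratio was not tested. With a stricter assignment of spots, at a margin of 0.5 between the layer scores, the *Myd88* ratio in muscle was -1.52, and with Leiden clusters in place of the scores it was -0.74.

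*Irak4*, the first kinase of the relay, and *Irak1*, its substrate, had section ratios with wide counting intervals. *Irak4* was read at 30.2 CPM in epidermis, 44.1 in dermis, 17.0 in fat and 23.4 in muscle of the fl/fl section (65, 37, 6 and 24 UMIs). The K14-Cre values were 33.4, 44.9, 23.8 and 16.7 CPM (30, 20, 6 and 13 UMIs). Dermis was the highest layer for *Irak4* in both sections, 1.64-fold over the other layers in fl/fl (1.09 to 2.42) and 1.76-fold in K14-Cre (0.99 to 3.02), and the same direction was found under the 10 alternatives. The *Irak4* log2 ratios lay between -0.48 in muscle and 0.48 in fat, and all 4 intervals include 0.

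*Irak1* was read at 45.6 CPM in epidermis, 87.0 in dermis, 70.9 in fat and 72.3 in muscle of the fl/fl section (98, 73, 25 and 74 UMIs). In the K14-Cre section it was 54.6, 92.0, 111 and 65.7 CPM (49, 41, 28 and 51 UMIs). Epidermis was the lowest layer in both sections, at 0.587 of the level in the other layers in fl/fl (0.454 to 0.757) and 0.671 in K14-Cre (0.471 to 0.943). Its log2 ratios ran from -0.14 in muscle to 0.65 in fat, with intervals that include 0 in all 4 layers. The fat ratio of *Irak1*, 1.57-fold (0.88 to 2.80), was above 0 under all 9 alternatives that gave a value.

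*Traf6*, the ubiquitin ligase downstream of the IRAK kinases, was highest in the epidermis in both sections and was lower in the K14-Cre section in all 4 layers. The fl/fl section gave 86.1 CPM in epidermis (185 UMIs), 47.7 in dermis (40 UMIs), 39.7 in fat (14 UMIs) and 37.1 in muscle (38 UMIs). The K14-Cre section gave 43.5 CPM in epidermis (39 UMIs), 11.2 in dermis (5 UMIs), 27.7 in fat (7 UMIs) and 28.3 in muscle (22 UMIs). Epidermis stood 2.07-fold over the other layers in fl/fl (1.61 to 2.69) and 1.88-fold in K14-Cre (1.16 to 3.08), so the layer order at the top was the same although the level was not. Over the muscle alone, epidermis stood 2.32-fold in fl/fl (1.63 to 3.38) and 1.53-fold in K14-Cre (0.89 to 2.72), the latter within the counting error. The log2 ratio of K14-Cre over fl/fl was -0.99 in epidermis (-1.52 to -0.48), -2.09 in dermis (-3.79 to -0.75), -0.52 in fat (-2.07 to 0.89) and -0.39 in muscle (-1.22 to 0.41). All 4 intervals shared a value, and weighted over the layers the ratio was -0.94 (-1.31 to -0.56). Under TMM scaling all 4 ratios were again below 0, but the intervals no longer shared a value, since the epidermis ratio was -1.69 and the muscle ratio -0.18. It was below 0 in epidermis under all 10 alternatives, from -1.69 under TMM scaling to -0.58 for the mean over spots. The dermis value rests on 5 UMIs in the K14-Cre section, a count that 306 of the 1226 chemosensory receptor genes reached in the same spots, and with Leiden clusters it was -0.11.

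*Tab2*, which binds ubiquitin chains and so recruits TAK1, was likewise lower in the K14-Cre section in all 4 layers, but its highest layer was the muscle. It was read at 61.4 CPM in epidermis (132 UMIs), 70.3 in dermis (59 UMIs), 85.1 in fat (30 UMIs) and 121 in muscle (124 UMIs) of the fl/fl section. In the K14-Cre section it was 30.1 CPM in epidermis (27 UMIs), 53.9 in dermis (24 UMIs), 35.7 in fat (9 UMIs) and 61.8 in muscle (48 UMIs). Epidermis was at 0.507 of the muscle level in fl/fl (0.394 to 0.653) and at 0.487 in K14-Cre (0.292 to 0.796). The log2 ratio between the sections was -1.03 in epidermis (-1.68 to -0.42), -0.38 in dermis (-1.13 to 0.32), -1.25 in fat (-2.51 to -0.14) and -0.97 in muscle (-1.48 to -0.48). The 4 intervals shared a value, the ratio weighted over the layers was -0.90 (-1.21 to -0.58), and every alternative gave a value below 0 in every layer. Under TMM scaling the 4 intervals still shared a value, although the epidermis ratio minus that of the muscle was then -0.98 (-1.74 to -0.21). Minus the dermis ratio it was -1.21 (-2.11 to -0.30) and minus the fat ratio -0.50 (-1.73 to 0.73). Under that scaling the differences from muscle and dermis thus left out 0. Of all members, *Traf6* and *Tab2* were the ones whose ratio was on the same side of 0 in all 4 layers. The share of all genes with a shared side was not computed, so this does not set these members apart from other genes.

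*Tab1*, the partner that activates TAK1, was higher in the K14-Cre section in the epidermis and not in the fat or muscle. The fl/fl values were 31.6 CPM in epidermis (68 UMIs), 45.3 in dermis (38 UMIs), 45.4 in fat (16 UMIs) and 40.0 in muscle (41 UMIs). The K14-Cre values were 76.9 CPM in epidermis (69 UMIs), 56.1 in dermis (25 UMIs), 27.7 in fat (7 UMIs) and 27.1 in muscle (21 UMIs). Epidermis was thus the lowest *Tab1* layer of the fl/fl section, at 0.738 of the others (0.532 to 1.02), and the highest of the K14-Cre section, at 2.14-fold (1.47 to 3.12). On the log2 scale these were -0.44 and 1.10, beside all-gene medians of epidermis over the other layers of -0.32 and 0.31. The *Tab1* log2 ratio of K14-Cre over fl/fl was 1.28 in epidermis (0.78 to 1.79), 0.31 in dermis (-0.48 to 1.07), -0.71 in fat (-2.23 to 0.65) and -0.57 in muscle (-1.40 to 0.23). Outside the epidermis its sign depended on how spots were assigned. It was 0.37 in muscle with Leiden clusters, 0.68 in fat with no margin and -0.45 in dermis at a margin of 0.5. The epidermis ratio exceeded that of the dermis by 0.97 (0.10 to 1.85), that of the fat by 1.99 (0.62 to 3.36) and that of the muscle by 1.85 (0.95 to 2.75). Under TMM scaling the epidermis ratio was 0.57 and exceeded the others by 0.41 (-0.46 to 1.28), 1.26 (-0.11 to 2.63) and 0.93 (0.03 to 1.83), and the 4 intervals shared the values from 0.07 to 0.44, so the difference from dermis and fat was then within the counting error. With the 100 most abundant genes left out of the totals, the *Tab1* epidermis ratio was 1.10 and the 4 intervals shared no value. That ratio then exceeded those of dermis, fat and muscle by 0.79 (-0.08 to 1.66), 1.77 (0.40 to 3.14) and 1.54 (0.64 to 2.44). In the epidermis spots the 1226 chemosensory receptor genes, which skin should hardly express, summed to 2030 CPM in fl/fl and 10867 in K14-Cre. That ratio, 5.35-fold, was larger than the 2.43-fold of *Tab1*, and it was 2.14 in dermis, 1.76 in fat and 1.10 in muscle. Their mean per gene in epidermis was 3.56 UMIs in fl/fl and 7.95 in K14-Cre, and with that mean taken off each gene the *Tab1* ratio kept its sign.

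*Map3k7*, the gene for TAK1, had section ratios near 0 in epidermis and muscle when scaled to all UMIs. It was read at 58.2 CPM in epidermis, 48.9 in dermis, 59.5 in fat and 64.5 in muscle of the fl/fl section (125, 41, 21 and 66 UMIs) and at 56.9, 53.9, 83.2 and 63.1 CPM in the K14-Cre section (51, 24, 21 and 49 UMIs). No layer of either section differed from the others beyond its counting interval. Its log2 ratio was -0.03 in epidermis (-0.53 to 0.45), 0.14 in dermis, 0.48 in fat and -0.03 in muscle, each interval includes 0, and TMM scaling turned the sign in dermis and muscle and gave -0.74 in epidermis. Scaled to all UMIs, the epidermis interval leaves room for a level up to 1.36-fold higher or down to 0.691 of the fl/fl level. Under TMM scaling the upper end of that interval was -0.26 on the log2 scale, so it left out 0.

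*Chuk*, the kinase subunit at the end of the list, which also has a role in keratinocyte differentiation, was the member read least often. It gave 14.4 CPM in epidermis, 31.0 in dermis, 19.8 in fat and 30.3 in muscle of the fl/fl section (31, 26, 7 and 31 UMIs), and 8.92, 38.2, 31.7 and 18.0 CPM in the K14-Cre section (8, 17, 8 and 14 UMIs). Epidermis was its lowest layer in both sections, at 0.499 of the others in fl/fl (0.314 to 0.778) and 0.337 in K14-Cre (0.136 to 0.732). Its log2 ratios were -0.69 in epidermis, 0.30 in dermis, 0.68 in fat and -0.75 in muscle, all with intervals that include 0. Under TMM scaling the *Chuk* ratio was -1.40 in epidermis, with an interval that ended at -0.25. The 8 UMIs in the K14-Cre epidermis equal the mean of a chemosensory receptor gene there (7.95), so the *Chuk* level in those spots was not above that background.

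**Figure D3:**
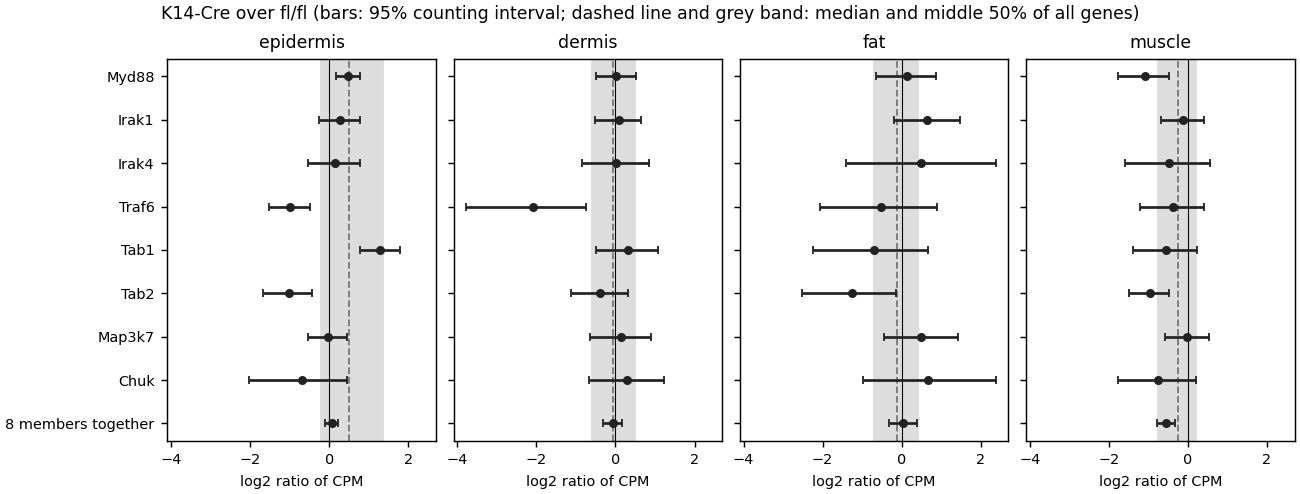
Log2 ratio of CPM, K14-Cre over fl/fl, of each member and of their sum in the 4 layers, with bars for the 95% counting interval, and with a dashed line and a grey band for the median and the middle 50% of all genes with at least 20 UMIs in that layer. *Traf6* and *Tab2* lie left of 0 in all 4 panels, *Tab1* lies right of 0 in epidermis (1.28) and *Myd88* left of 0 in muscle (-1.10).

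Whether the section difference was shared by the layers therefore differed between members. For *Traf6* and *Tab2* the layers shared a direction when scaled to all UMIs, under TMM and without the 100 most abundant genes. Their intervals shared a value under each scaling for *Tab2*, but not under TMM scaling for *Traf6*. Under TMM the *Tab2* epidermis ratio still differed from those of dermis and muscle beyond the counting interval of the difference. For *Tab1* and *Myd88* the layers shared no value when scaled to all UMIs or without the 100 most abundant genes, and shared one under TMM scaling. For *Irak1*, *Irak4*, *Map3k7* and *Chuk* the intervals of all 4 layers include 0 when scaled to all UMIs. Under TMM scaling the epidermis intervals of *Map3k7* and *Chuk* lay below 0, with upper ends of -0.26 and -0.25. The epidermis ratio minus the fat ratio was then -1.11 for *Irak1* (-2.04 to -0.19), -1.24 for *Map3k7* (-2.24 to -0.25) and -2.10 for *Chuk* (-3.94 to -0.25). For *Irak4* that difference included 0. Counted by a 2-fold size, *Tab1* was the only member that much higher in the K14-Cre epidermis, as were 33.7% of all genes with at least 20 UMIs there. *Tab2* was the only one that much lower, as were 7.22% of those genes. Among the genes with at least 100 UMIs there, which include *Tab1* and *Tab2*, 10.1% were that much higher and 11.7% that much lower. *Traf6* just missed that size in epidermis, at 0.505 of the fl/fl level. In dermis *Traf6* was the 1 member at least 2-fold lower (12.8% of all genes) and none was as much higher (11.5%). In fat *Tab2* was the 1 member lower (16.5%) and none of the 6 with at least 20 UMIs was higher (9.5%). In muscle *Myd88* was the 1 member lower (17.1%) and none was higher (4.21%). Among genes with at least 100 UMIs in muscle, which include *Myd88*, 11.0% were lower and 2.27% higher. Over all spots no member reached the size in either direction, against 28.4% of all genes higher and 4.47% lower. Among genes with at least 100 UMIs over all spots, which include all 8 members, these shares were 6.73% and 6.83%. With 8 members, 1 member is 12.5%.

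Each layer was also divided along the section into 4 segments of nearly equal spot number, which show how even a level was within a section and are not replicates. In epidermis *Tab1* ran from 27.2 to 37.8 CPM over the fl/fl segments and from 53.3 to 105.8 over the K14-Cre segments, without overlap. Of all genes, 15.3% had their K14-Cre epidermis segments all above the fl/fl ones and 7.1% all below. *Tab2* was the member with all of them below, at 54.5 to 75.1 CPM in fl/fl and 4.92 to 49.4 in K14-Cre. *Traf6* overlapped in epidermis, at 49.0 to 102.7 and 32.3 to 78.7 CPM, since 1 K14-Cre segment lay within the fl/fl range. *Myd88* overlapped as well, at 89.7 to 146.9 and 106.9 to 260.0 CPM. In dermis *Traf6* was the only member without overlap, at 40.5 to 60.3 against 0 to 27.8 CPM (7.23% of all genes all below, 3.6% all above). In muscle *Myd88* was the only one, at 78.6 to 92.2 against 6.50 to 67.0 CPM (9.63% below, 2.58% above). The fl/fl muscle segments of *Myd88* were close to each other, whereas the K14-Cre segments spread widely. They held 38, 27, 9 and 8 UMIs in fl/fl and 18, 6, 4 and 1 in K14-Cre. The K14-Cre dermis segments of *Traf6* held 1, 3, 0 and 1 UMIs, and the lowest *Tab2* epidermis value rests on 1 UMI. The part of counting error in these ranges was not tested. In fat every member overlapped (6.71% of all genes below, 2.41% above).

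**Figure D4:**
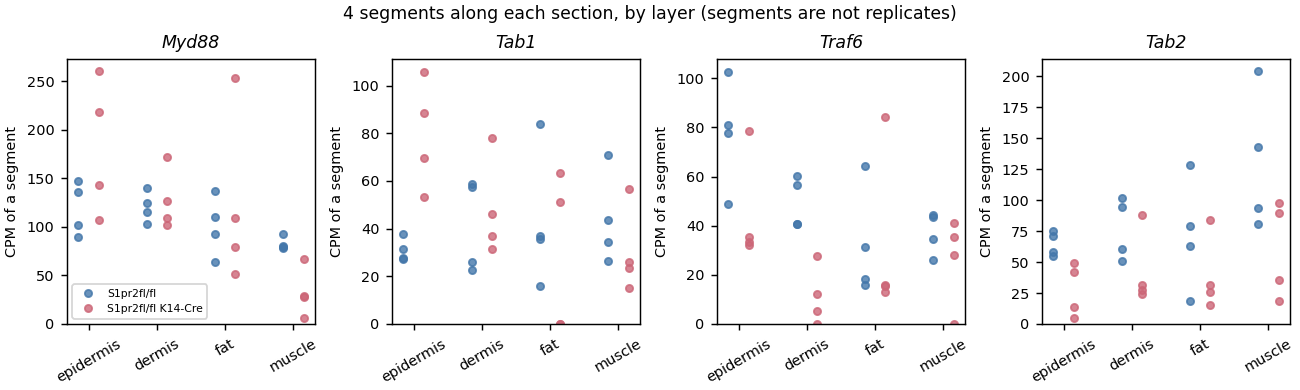
Level in CPM of the 4 segments along each section, by layer, for *Myd88*, *Tab1*, *Traf6* and *Tab2*, fl/fl in blue and K14-Cre in red, with 1 point per segment. The points of *Tab1* and *Tab2* in epidermis, of *Traf6* in dermis and of *Myd88* in muscle do not overlap between the sections, and 1 K14-Cre epidermis segment of *Traf6* (78.7 CPM) lies within the fl/fl range.

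In epidermis 4 members had a section ratio whose interval left out 0 when scaled to all UMIs. For these the share of spots with a UMI was on the same side as the CPM once depth was made equal. When each epidermis spot was thinned to 1000 UMIs, which left 327 fl/fl and 269 K14-Cre spots, *Myd88* was read in 9.17% and 12.3% of spots, *Tab1* in 1.83% and 5.20%, *Traf6* in 8.87% and 3.72% and *Tab2* in 7.34% and 2.60%. Without thinning, 38.2% of the 353 fl/fl and 25.8% of the 291 K14-Cre epidermis spots held a *Myd88* UMI, the opposite order to the thinned shares, and the unthinned order of *Tab1* was turned as well. The median chemosensory receptor gene was read in 0 of the thinned fl/fl spots and in 0.743% of the K14-Cre spots, the same share as *Chuk* (0.743%). The median UMIs per epidermis spot before thinning were 5157 and 2396. In muscle the thinned shares of *Myd88* were 7.91% of 215 and 3.19% of 251 spots. In fat those of *Traf6* were 1.28% of 78 and 3.95% of 76 spots, the opposite order to its CPM.

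Around the members, the other 48 genes of the pathway were taken from lists by role. Of all genes with at least 20 UMIs in epidermis, 67.4% were higher in the K14-Cre section, and of those with at least 100 UMIs, 49.4%. The epidermis counts of each list below are to be read beside the first share, which has the same threshold. Ratios of single genes in the lists are scaled to all UMIs. Under TMM scaling each moves by -0.71 in epidermis, -0.15 in dermis, 0.02 in fat and 0.21 in muscle. Of 14 receptor genes, 7 had at least 20 UMIs in epidermis, of which 5 were higher in the K14-Cre section and 2 lower (4 and 3 under TMM scaling), with a median log2 ratio of 0.86. *Il1rap*, the accessory chain shared by receptors of the interleukin-1 family, was read at 122 and 101 UMIs there, a log2 ratio of 0.99 (0.59 to 1.38). The TMM shift in epidermis is larger in size than the lower end of that interval, which would then include 0. In the other layers *Il1rap* was lower in the K14-Cre section, with log2 ratios of -1.13 in dermis (-2.02 to -0.33), -1.95 in fat (-3.68 to -0.55) and -1.42 in muscle (-2.44 to -0.51). *Il1rl2*, the interleukin-36 receptor, was the lowest of the list at 193 and 34 UMIs, a log2 ratio of -1.24 (-1.82 to -0.71). *Tlr7*, the receptor for imiquimod, was read at only 11 and 7 UMIs in epidermis and at 24 and 24 in dermis. *Tlr9* was the highest of the list in epidermis, from 12 and 13 UMIs.

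Of the 10 further adapters, kinases and ubiquitin enzymes, 5 were higher and 5 lower in epidermis (1 and 9 under TMM scaling), with a median of 0.13. *Peli1*, a ubiquitin ligase that acts on the IRAK kinases, was read at 290 and 48 UMIs in epidermis, a log2 ratio of -1.33 (-1.81 to -0.89). *Ube2v1*, a cofactor of the enzyme that builds ubiquitin chains with TRAF6, was at 253 and 45 UMIs, a log2 ratio of -1.23 (-1.72 to -0.77). Like *Traf6* and *Tab2*, both were also lower in dermis (-1.60 and -0.95), fat (-1.19 and -0.62) and muscle (-1.10 and -0.94). *Tirap* was the highest of this list in epidermis (20 and 18 UMIs) and *Tab3* the lowest (21 and 3 UMIs).

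Of the 13 genes for IKK, NF-kB and its inhibitors, 8 were higher and 5 lower in epidermis (2 and 11 under TMM scaling), with a median of 0.52. The median of all genes with at least 20 UMIs there was 0.49. Among genes with at least 100 UMIs, a depth that each gene of the list named next reached, it was -0.01. The subunit genes *Nfkb1* (317 and 311 UMIs) and *Rela* (324 and 299 UMIs) had log2 ratios of 1.23 (1.00 to 1.46) and 1.14 (0.91 to 1.38). The inhibitor gene *Nfkbia* was read at 487 and 103 UMIs and had a log2 ratio of -0.98 (-1.30 to -0.67). *Nfkbiz*, for an atypical inhibitor that is itself induced by the pathway, was read at 168 and 27 UMIs and had a log2 ratio of -1.38 (-2.02 to -0.78). *Nfkbia* was lower in dermis (-1.16), fat (-1.64) and muscle (-1.81) too, whereas *Nfkb1* was at -0.30, -0.08 and -0.69 in these layers. *Rela* was higher in the fat of the K14-Cre section as well, where it was the highest of the list (1.09 with 0.5 UMIs added to each count). Of the 11 MAP kinase and IRF genes, 7 were higher and 4 lower in epidermis (4 and 7 under TMM scaling), with a median of 0.38. *Map2k4*, a kinase upstream of JNK, was the lowest, with 225 and 19 UMIs and a log2 ratio of -2.31 (-3.06 to -1.63). *Map2k6* was the highest, from 12 and 15 UMIs. In muscle the medians of the 4 lists were -0.68, -0.94, -0.43 and -0.06 beside -0.24 for all genes.

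**Figure D5:**
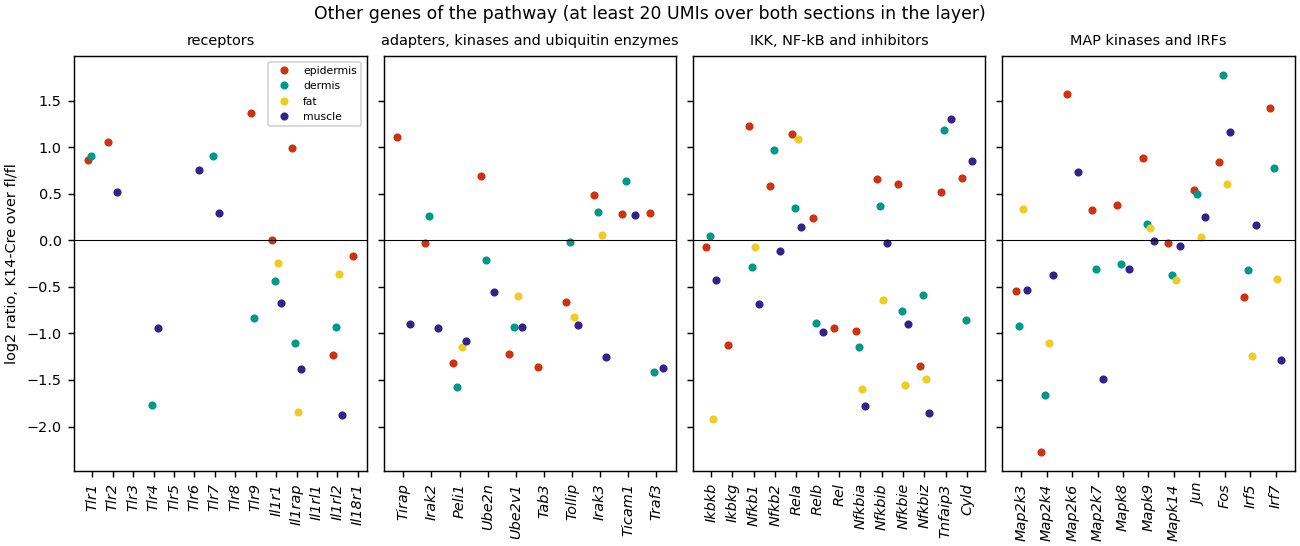
Log2 ratio of K14-Cre over fl/fl of the other pathway genes, by role and coloured by layer, drawn where a gene had at least 20 UMIs over both sections in that layer and with 0.5 UMIs added to each count. *Peli1*, *Ube2v1*, *Nfkbia* and *Nfkbiz* lie below 0 in all 4 layers, and *Nfkb1* lies above 0 in epidermis (1.23) only.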

How the data were processed

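The files deposited for each section hold whole-number UMI counts by gene and spot, without any normalization by the authors, and the spot positions of the Visium CytAssist array. Per the file headers and the submitters' processing notes, the counts came from Space Ranger 3.0.0 on mm10. CPM values are UMIs of a gene per 1000000 UMIs of the same spots. The 2 sections are 1 per genotype, so no test was run; 95% intervals are exact Poisson for CPM, conditional binomial for ratios and Clopper-Pearson for shares, and cover counting error only. Differences between layers' log2 ratios and weighted means used normal intervals from the counts.

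The 8 members, the marker lists, the pathway lists and the layer rule were chosen with earlier results of these data known. A spot with at least 500 UMIs went to the layer (16 epidermis, 11 dermis, 10 fat or 11 muscle markers) with the highest mean z-score of log2(1 + UMIs per 10000), where it was above 0 and at least 0.2 above the next. Named besides the members were pathway genes with at least 50 UMIs over both sections, the highest and lowest of each list in epidermis, and the 5 genes most correlated with *Myd88* and with the summed members. Spots hold several cells, and no doublet caller was run. Python 3.11.15, numpy 2.4.6 and scipy 1.17.1 were used, with scanpy 1.11.5 and igraph 0.11.9 for Leiden clusters and edgeR 4.0.16 in R 4.3.3 only for TMM factors. The ratio code was tested on simulated data. The 10 alternatives were Leiden clusters, margins of 0 and 0.5, minimums of 50 and 1000 UMIs, TMM, totals without the 100 most abundant genes, the mean chemosensory receptor count taken off, means over spots and, added after seeing the positions, connected groups of at least 20 spots. Histology images were not used here.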

Additional observations from a re-analysis of the deposited data

Results flagged for a closer look

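The *Myd88* log2 ratio of K14-Cre over fl/fl had opposite signs in 2 layers of the same sections, at 0.47 in epidermis spots and -1.10 in muscle spots. With 1 section per genotype the difference was not tested. The counting interval of the difference (0.89 to 2.25) does not include the spread between animals, and under TMM scaling the values were -0.24 and -0.89, both below 0. They were 0.29 and -0.97 with the 100 most abundant genes left out of the totals.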

How the results depend on the processing

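No paired analysis was possible because each genotype has 1 section and no replicate numbers. Of 366 single-member section ratios under the alternatives, 347 stayed within the counting interval of the value reported and 19 moved outside it. For the 8 members together, 41 of 46 stayed: the epidermis ratio (0.07) was -0.64 under TMM scaling, -0.11 without the 100 most abundant genes and -0.13 with the receptor background taken off, and the ratio over all spots (-0.12) was -0.50 under TMM scaling and -0.24 with that background taken off. Of 694 ratios of a layer to the other layers, 665 stayed within the interval of the value reported and 29 did not. The sign differed in 69 of the 694, of which 3 belong to ratios whose own interval leaves out 0. The 1 ratio of at least 2-fold that changed sign was *Traf6* in the K14-Cre dermis, which was -1.65 on the log2 scale and 0.14 with Leiden clusters.

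The number of members at least 2-fold lower was 1 in each layer and 0 over all spots. In epidermis it was 2 with Leiden clusters, no margin, a margin of 0.5, a minimum of 50 UMIs, without the 100 most abundant genes and with the receptor background taken off, and 3 under TMM scaling, where the number at least 2-fold higher was 0 instead of 1. In dermis it was 0 with no margin and with the receptor background taken off, and 2 at a margin of 0.5. In fat it was 2 at a margin of 0.5 and 0 for the mean over spots, where 1 member was higher instead of 0. In muscle it was 0 with Leiden clusters, a minimum of 1000 UMIs, TMM scaling and without the 100 most abundant genes, and 2 for the mean over spots. Over all spots it was 2 under TMM scaling and with the receptor background taken off, and 1 for the mean over spots. Thinning to 1000 UMIs moved 74 of 80 shares, since a share falls with depth. The causes of the other shifts were not tested. Leiden clusters gave no fat region, so no fat value under that setting. Counts at or under 3 UMIs after the receptor background was taken off gave no ratio.

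The depth limits what can be read: several members had under 10 UMIs in fat, *Chuk* had 8 in the K14-Cre epidermis and *Traf6* 5 in the K14-Cre dermis, and a difference within these counting intervals was not detectable.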

Other observations

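Genes whose level followed that of *Myd88* were sought over the 8 values (4 layers in each of 2 sections), among 2274 genes with at least 20 UMIs in each. The 5 with the highest Pearson correlation of log2 CPM were *Zfp219* (0.98), a zinc finger gene, *Timm13* (0.98), for a chaperone of mitochondrial import, *Lrrc59* (0.98), for a protein of the endoplasmic reticulum, *Cdk1* (0.97), the kinase that drives mitosis, and *Arl6ip1* (0.97). *Cdk1* was read at 142 CPM in the fl/fl epidermis and 272 in the K14-Cre epidermis, and at 86.9 and 30.9 CPM in muscle. *Zfp219* was read at 114 and 213 CPM in epidermis and at 67.4 and 29.6 CPM in muscle. For the summed members the 5 were *Timm13* (0.93), *Stx16* (0.90), *Bcam* (0.90), *Tomm5* (0.90) and *Lrrc59* (0.90). The 8 values come from 2 libraries and share their depth and layer mixing, so the correlations are a description of these sections.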
